A study of Mus musculus with 6 samples.

Results

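The genes described here encode chaperones, folding enzymes and regulators of the response to misfolded proteins. They were chosen by a rule on gene names from the table of genes deposited for the mouse ovarian cancer cell lines ID8 and KMF, and 88 of its 7320 rows matched. The rule uses no measured value, but it was written with earlier results of these data known. Of 175 protein-coding genes of the same names in the mouse annotation GENCODE M21, these 88 were listed, because the table holds only genes that the deposited comparison of the lines had already called at an adjusted p under 0.05. The others were not analysed here, and the share of members that differed is therefore set by the table. ID8 cells come from ovarian epithelial cells of C57Bl6 mice that became immortal in culture and were cloned. KMF cells, also named ID8-IP, are their descendants, recovered from the ascites of mice of that strain and expanded without attachment. They carry DNA copy number gains and losses relative to ID8. Both lines were untreated and grew for 5 days as tumorspheres, free-floating clusters, in PromoCell XF medium. RNA came from 3 samples of each line, at passages 23, 24 and 35 for ID8 replicates 1 to 3 and at passages 14, 17 and 22 for KMF replicates 1 to 3. Each line has a single history, so a difference between the lines cannot be told apart from one between individual cell populations, the passages of the lines do not overlap, and the tests measure only the spread between these RNA samples.

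Proteins that enter the endoplasmic reticulum (ER) are folded there by Hsp70, Hsp90 and lectin chaperones, and oxidoreductases join their cysteines by disulfide bonds. When unfolded proteins build up, the sensors Ern1 (IRE1), Eif2ak3 (PERK) and ATF6 start the unfolded protein response: IRE1 splices the mRNA of Xbp1, PERK phosphorylates the initiation factor eIF2 and raises translation of ATF4, and the factors made in this way switch on ER chaperones and enzymes of ER-associated degradation. In the cytosol, heat shock factors drive another set of chaperones, the Hsp70, Hsp90 and J proteins.

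The 6 libraries held 23108407 to 33212313 fragments on genes, as recovered from the deposited counts and FPKM (fragments scaled to the length of the gene and to the depth of the library), so that 3 fragments equalled 0.0903 to 0.13 CPM, the count scaled to library depth. The table itself held 52.8 to 55.9% of these fragments. In the order of replicates 1 to 3, values are given per library below as FPKM, which can be compared between genes because it is per length. Fold changes are KMF against ID8, on a log2 scale, from edgeR with TMM scaling between libraries, and so are not plain ratios of these CPM. Each has an adjusted p from the edgeR quasi-likelihood test. The standard error was worked back as the absolute log2 fold change over the square root of that test's F statistic. A gene was called where that p was under 0.05. The libraries are bulk RNA, in which fewer cells of a type and less RNA per cell cannot be told apart.

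Of the 88 genes, all were fitted and 81 (92.05%) were called, beside 92.9% of the 6967 fitted genes of the table. The share of members higher in KMF was 54.55%, or 48 genes, beside 45.4% of all fitted genes, and the share lower was 37.5%, or 33 genes, beside 47.5%. The excess of higher genes was smaller in some alternatives, with 38.6% of members beside 35.9% of all fitted genes without ID8 replicate 1 and 38.6% beside 35.3% with upper quartile scaling. The median log2 fold change was 0.29 over the members and -0.23 over all fitted genes. The latter turned positive once genes with low counts were left out. It was 0.20 over the 6098 genes that reached 10 counts in each library and 0.20 to 0.22 over 5981 genes with limma on FPKM, beside 0.27 to 0.28 over the members, so that the medians lay close together. Changes of at least 2-fold made up a smaller share of the members than of all fitted genes, a difference that was not tested. Of the members, 9 rose at least 2-fold (10.23% beside 18% of all fitted genes) and 14 fell at least 2-fold (15.91% beside 22.5%). Groups did not overlap in 82 of 88 members (93.18%), beside 96.6% of all fitted genes. Mean levels of at least 1 FPKM were seen in both lines for 77 members and in ID8 alone for 9, and 2 were under 1 FPKM in both. The median coefficient of variation over the 3 libraries was 6.81% in ID8 and 8.25% in KMF. The genes at least 2-fold higher were Hspa12b, Dnajc25, Bag1, P4ha2, Hspb6, Sesn3, Manf, Fkbp11 and Ero1lb, and those at least 2-fold lower were Dnaja4, Ddit4l, Dnajc12, Ppic, Creb3l1, Dnajc27, Hspa1a, Calr3, Fkbp1b, Dnajc28, Sel1l3, Fkbp10, Sesn1 and Creb3.

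**Figure D1:**
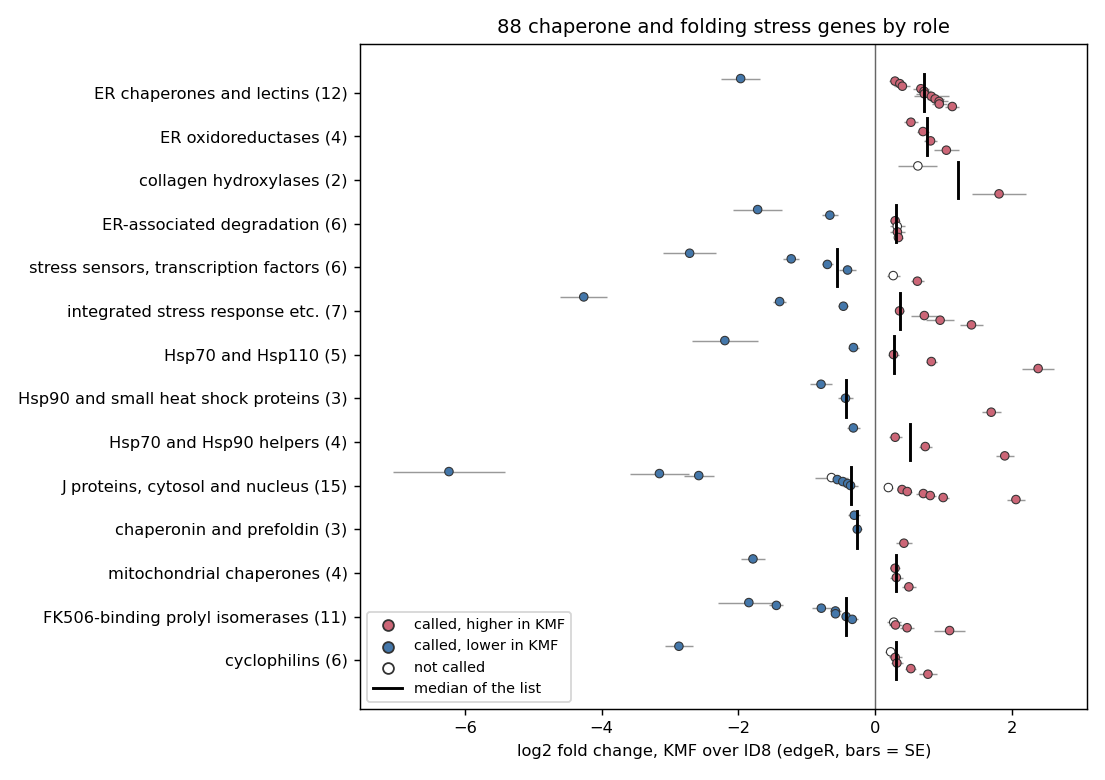
Log2 fold change (KMF against ID8, from edgeR; horizontal axis) of each of the 88 genes, one point per gene with its SE as a bar, grouped by role; colours mark the call, open points are not called and a black line marks the median of the role. The ER chaperones and oxidoreductases sit to the right of zero except Calr3, whereas the J proteins, FK506-binding proteins and stress sensors spread to both sides.

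Of the 16 listed chaperones and oxidoreductases of the ER, 15 were higher in KMF (93.75%). Beside this count and those of each role below, 45.4% of all fitted genes were higher and 47.5% were lower. Several of the role counts lie near these shares. Of the 12 listed ER chaperones and lectins, of 13 annotated, 11 were higher in KMF and 1 was lower, and the 4 listed oxidoreductases, of 8 annotated, were higher, with a median log2 fold change of 0.71 over these 16 genes beside -0.23 over the table. With the low genes left out in those ways it was 0.65 to 0.67 beside 0.20 to 0.22. The rises ran from 1.22-fold to 2.18-fold. The 16 genes took 0.483, 0.517 and 0.498% of all fragments on genes in the ID8 libraries and 0.657, 0.821 and 0.848% in the KMF libraries. The calls of 12 of the 16 held in every processing alternative that fitted them.

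Hspa5 (BiP), the Hsp70 chaperone of the ER lumen and the most studied target of the unfolded protein response (ENSMUSG00000026864, chromosome 2, 34771970 to 34776531), measured 304, 335 and 346 FPKM in ID8 and 477, 629 and 653 FPKM in KMF. Every KMF library was above every ID8 library, and the log2 fold change was 0.87 ± 0.13 (SE, edgeR adjusted p = 0.00115). Hsp90b1 (Grp94), the Hsp90 chaperone of the same compartment (chromosome 10, 86690209 to 86705509), measured 125, 134 and 122 FPKM in ID8 and 191, 241 and 278 FPKM in KMF. It changed by 0.93 ± 0.13 (edgeR adjusted p = 0.000992). About 10.3% of its exon bases also lie in the exons of 1810014B01Rik, and the strand setting of the counting is not given in the sources used here. Hyou1, a large Hsp110-type partner of BiP that swaps its nucleotide, was at 43.2, 46.04 and 42.4 FPKM in ID8 and 68.99, 91.8 and 84.1 FPKM in KMF, again without overlap. Its log2 fold change was 0.93 ± 0.11 (edgeR adjusted p = 0.00045). Manf, a small secreted protein that ER stress induces and that binds BiP (chromosome 9, 106838312 to 106891979), had the largest rise of the 16 genes, at 49.8, 56.1 and 55.2 FPKM in ID8 and 98.1, 124 and 119.7 FPKM in KMF. Manf changed by 1.13 ± 0.10 on the log2 scale (edgeR adjusted p = 0.000139).

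Of the J proteins of the ER lumen, which pass clients to BiP, 3 were listed. Dnajb11, Dnajc3 and Dnajc10, a J protein that also reduces disulfides, had log2 fold changes of 0.71 ± 0.10, 0.72 ± 0.12 and 0.67 ± 0.12 (edgeR adjusted p = 0.000906, 0.00222 and 0.00305). Dnajc10, for instance, measured 61.6, 59.3 and 69.2 FPKM in ID8 and 80.5, 105 and 108 FPKM in KMF, and in each of these genes the KMF libraries were all above the ID8 libraries. The lectin chaperones Calr and Canx, which hold glycoproteins in the folding cycle, rose less. Calr was at 381, 413 and 401 FPKM in ID8 and 423, 542 and 567 FPKM in KMF. In Calr the log2 fold change was 0.40 ± 0.12 (edgeR adjusted p = 0.0284). Its KMF replicate 1 lay close above the ID8 range, and the adjusted p rose to 0.106 without ID8 replicate 1, 0.0629 without ID8 replicate 3, 0.0755 without KMF replicate 2 and 0.0802 without KMF replicate 3. Canx was at 178, 186 and 163 FPKM in ID8 and 197, 228 and 234 FPKM in KMF. Canx changed by 0.36 ± 0.10 on the log2 scale (edgeR adjusted p = 0.0203), with an adjusted p of 0.0638 without ID8 replicate 1, 0.0555 without ID8 replicate 3 and 0.0525 without KMF replicate 3. Hspa13, a microsomal Hsp70, changed by 0.29 ± 0.09 (edgeR adjusted p = 0.036, and 0.133 without ID8 replicate 1, 0.0824 without ID8 replicate 3, 0.0822 without KMF replicate 2 and 0.0626 without KMF replicate 3).

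The remaining lectin-type genes of the ER were low. Calr4 was at 1.70, 1.36 and 2.24 FPKM in ID8 and 3.62, 2.23 and 3.26 FPKM in KMF, the only one of the 16 whose lines overlapped, with a log2 fold change of 0.82 ± 0.26 (edgeR adjusted p = 0.0398, and 0.124 without ID8 replicate 1, 0.117 without ID8 replicate 2, 0.126 without KMF replicate 1 and 0.113 without KMF replicate 3). Calr3, the testis form of calreticulin, measured 3.22, 3.02 and 4.34 FPKM in ID8 and 0.767, 0.636 and 1.19 FPKM in KMF. It was the only gene of these 16 to fall, with a log2 fold change of -1.97 ± 0.29 (edgeR adjusted p = 0.00122). Its counts were 168, 129 and 197 fragments in ID8 and 32, 26 and 70 in KMF. Prolyl isomerases of the ER and secretory pathway were grouped apart from these 16. Of those placed there below, Fkbp10 (-1.45) and Ppic (-2.87) were lower, and Fkbp11 (1.09), Fkbp2 (0.46) and Ppib (0.29) were higher.

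The 4 listed oxidoreductases were each called higher. Pdia6, a disulfide isomerase found in BiP complexes (chromosome 12, 17266545 to 17284770), was at 105, 112 and 103 FPKM in ID8 and 159.7, 185 and 200.2 FPKM in KMF. It changed by 0.81 ± 0.09 (edgeR adjusted p = 0.000417). Pdia3, which works on glycoproteins held by Calr and Canx, was at 269.9, 287 and 275 FPKM in ID8 and 385, 461 and 467 FPKM in KMF. It changed by 0.70 ± 0.09 (edgeR adjusted p = 0.000832). The groups did not overlap for either gene. Pdia4 was at 71.02, 80.2 and 72.3 FPKM in ID8 and 89.5, 107 and 115 FPKM in KMF. In Pdia4 the log2 fold change was 0.52 ± 0.11 (edgeR adjusted p = 0.00591), and Ero1lb, which reoxidises the isomerases, was low at 2.72, 2.53 and 3.20 FPKM in ID8 and 4.32, 6.89 and 5.67 FPKM in KMF. Ero1lb changed by 1.04 ± 0.18 on the log2 scale (edgeR adjusted p = 0.0031). Within KMF, replicate 1 (passage 14) was the lowest library for 14 of the 16 ER genes (87.5%), beside 38.9% of all fitted genes. Without that library the median log2 fold change over the ER genes was 0.80. Passage is not shared between the lines, so its part cannot be told apart from that of the library.

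**Figure D2:**
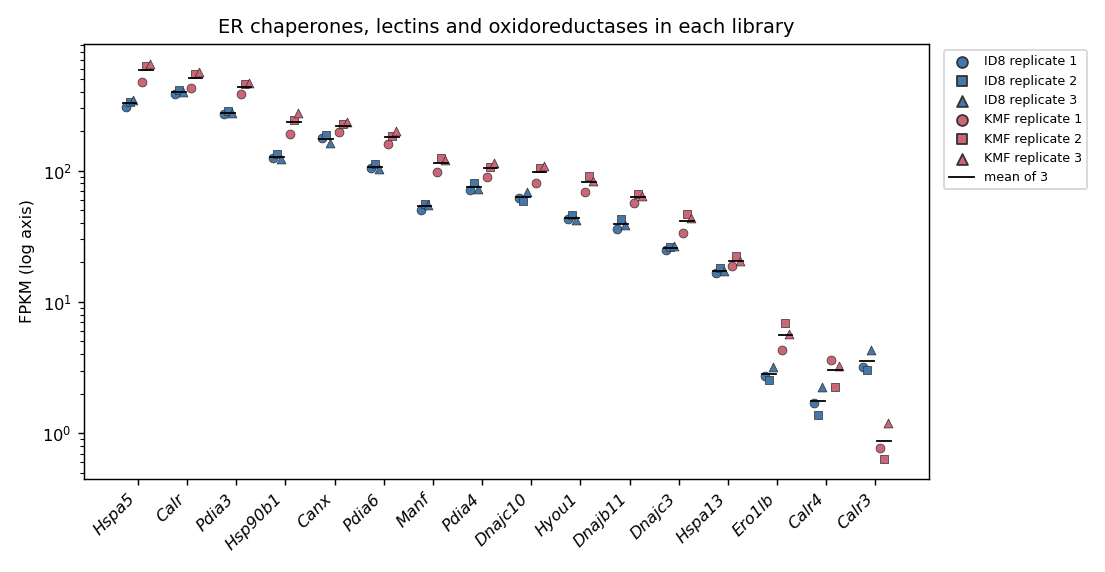
FPKM (log axis) of ER chaperones and oxidoreductases in each library of ID8 and KMF, one point per library with a marker for each replicate and a black line at the mean of 3. In the genes with the larger rises, such as Hspa5, Hsp90b1, Hyou1, Manf and Pdia6, all KMF points lie above all ID8 points, and KMF replicate 1 lies lowest of its line.

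Promoters of these genes were read for the ER stress response element (ERSE), the sequence bound by NF-Y and by ATF6 or XBP1 after ER stress, written as CCAAT, 9 bases of any kind and CCACG, on either strand. RefSeq promoters (GRCm38.p6), from 250 bases before to 50 bases after the start of transcription, were found for 75 of the 88 members. The element was found in 7 of these 75 (9.33%) and in 37 of all 27025 genes with such a window (0.137%). The 7 were Calr, Calr4, Canx, Dnajc3, Hsp90b1, Hspa5 and Pdia6, and all 7 were called higher in KMF, as were 15 of the 16 listed ER genes with or without it. The calls of Calr, Calr4 and Canx were lost in 8, 9 and 4 of 16 alternatives. For Calr4 the window with the element (chromosome 4, 109218163 to 109218462) lies outside the listed span of the gene, 109234485 to 109254571. Of 30 further genes with the element, 10 were in the table, of which 6 were called higher and 2 lower. Of the ER chaperones 6 of 9 with a window held it, and of the oxidoreductases 1 of 3. The promoters of 4 genes are given because they hold the element in genes with rises that no alternative lost; the match is in capitals and the strand is that of the gene.
Hspa5 (chr2:34771840-34772139, plus strand): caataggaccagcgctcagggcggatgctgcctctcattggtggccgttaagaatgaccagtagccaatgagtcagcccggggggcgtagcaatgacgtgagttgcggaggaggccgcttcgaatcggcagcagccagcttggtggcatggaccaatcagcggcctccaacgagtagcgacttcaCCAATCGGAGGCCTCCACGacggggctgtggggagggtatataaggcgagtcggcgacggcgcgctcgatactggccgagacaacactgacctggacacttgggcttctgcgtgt
Hsp90b1 (chr10:86705395-86705694, minus strand): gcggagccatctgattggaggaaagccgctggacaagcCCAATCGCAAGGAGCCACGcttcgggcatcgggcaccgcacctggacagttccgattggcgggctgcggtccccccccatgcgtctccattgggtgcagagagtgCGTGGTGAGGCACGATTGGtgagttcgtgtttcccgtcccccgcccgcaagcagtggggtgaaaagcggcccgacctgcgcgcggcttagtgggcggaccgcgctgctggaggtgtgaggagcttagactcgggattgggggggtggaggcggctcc
Dnajc3 (chr14:118937682-118937981, plus strand): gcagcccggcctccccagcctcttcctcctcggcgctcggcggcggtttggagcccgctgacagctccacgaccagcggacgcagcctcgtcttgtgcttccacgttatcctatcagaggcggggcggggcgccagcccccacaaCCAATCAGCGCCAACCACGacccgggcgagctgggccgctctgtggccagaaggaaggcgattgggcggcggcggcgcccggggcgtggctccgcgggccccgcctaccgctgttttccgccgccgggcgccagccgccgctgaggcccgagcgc
Pdia6 (chr12:17266339-17266638, plus strand): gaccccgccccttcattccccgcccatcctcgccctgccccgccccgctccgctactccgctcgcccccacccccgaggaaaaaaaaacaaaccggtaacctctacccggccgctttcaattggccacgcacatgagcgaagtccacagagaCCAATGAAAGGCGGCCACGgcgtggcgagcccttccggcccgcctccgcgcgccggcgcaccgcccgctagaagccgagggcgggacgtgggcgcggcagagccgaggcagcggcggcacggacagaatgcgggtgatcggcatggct
In Hsp90b1 there were 2 matches, 1 on each strand, and the matches in the 4 genes lay between 212 and 47 bases before the start. The element stood 162 to 144 bases before the start of Calr, on the opposite strand, and 145 to 127 bases before that of Canx. A related element, ERSE-II (ATTGG, any base and CCACG), was looked for after the values were known. It was found in 0.0444% of all genes and in Dnajb11, as ATTGGCCCACG, and in Herpud1, as ATTGGGCCACG. The heat shock element, read as the alternating triplets GAA, TTC and GAA or TTC, GAA and TTC with 2 bases of any kind between them, was found in 0.662% of genes and in 1 member, at another start of Calr4, and the amino acid response element, TGATGNAAT, in 1.08% of genes and in 0 members. A match is a string of letters, and no binding was measured here.

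Among genes of ER-associated degradation, 3 of 6 were higher, 2 were lower and 1 was not called. Sel1l, which tethers the ubiquitin ligase that removes misfolded proteins, and Edem2, a mannosidase that marks them, had log2 fold changes of 0.34 ± 0.07 and 0.29 ± 0.07 (edgeR adjusted p = 0.00649 and 0.0152; for Edem2 an adjusted p of 0.0704 without ID8 replicate 1). Herpud1, a stress-induced organiser of that ligase, was at 48.9, 48.5 and 60.1 FPKM in ID8 and 57.9, 68.7 and 65.03 FPKM in KMF, so that the lines overlapped. It changed by 0.32 ± 0.10 (edgeR adjusted p = 0.0425). That call was lost in 10 of 16 alternatives, with an adjusted p of 0.161 without ID8 replicate 1, 0.135 without ID8 replicate 2, 0.127 without KMF replicate 2 and 0.1 without KMF replicate 3. Edem3 went the other way, at 22.5, 21.8 and 29.6 FPKM in ID8 and 14.4, 15.5 and 15.5 FPKM in KMF. In Edem3 the log2 fold change was -0.66 ± 0.12 (edgeR adjusted p = 0.00285), and Sel1l3, a homolog of Sel1l, was at 1.14, 1.11 and 0.691 FPKM in ID8 and 0.423, 0.259 and 0.194 FPKM in KMF. Sel1l3 changed by -1.72 ± 0.36 on the log2 scale (edgeR adjusted p = 0.00679). Edem1 was not called (0.32 ± 0.11, edgeR adjusted p = 0.0587, and 0.00439 without KMF replicate 1), and its call was gained in 4 of 16 alternatives.

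The sensors and transcription factors did not share one direction, with 1 higher, 4 lower and 1 not called of 6. Eif2ak3, the PERK kinase (chromosome 6, 70844515 to 70905245), was at 10.1, 11.2 and 10.96 FPKM in ID8 and 14.1, 17.6 and 16.4 FPKM in KMF and rose by 0.61 on the log2 scale (SE 0.10, edgeR adjusted p = 0.002). Ern1, the IRE1 sensor, was at 25.5, 22.4 and 26.8 FPKM in ID8 and 15.1, 15.3 and 14.2 FPKM in KMF, so that every KMF library was below every ID8 library, with a log2 fold change of -0.70 ± 0.08 (edgeR adjusted p = 0.000409). Xbp1, whose mRNA IRE1 splices, was not called, at 125, 127 and 121 FPKM in ID8 and 126, 152 and 158 FPKM in KMF. The lines overlapped, as KMF replicate 1 lay within the ID8 range. In Xbp1 the log2 fold change was 0.26 ± 0.09 (edgeR adjusted p = 0.0604, and 0.00773 without KMF replicate 1). The table gives one value per gene, and spliced and unspliced Xbp1 were not separated. The 3 listed genes of the Creb3 family of membrane-bound factors were called lower, Creb3l2 with a call lost in 5 of 16 alternatives. Creb3 (chromosome 4, 43562332 to 43567060) was at 39.4, 43.6 and 44.2 FPKM in ID8 and 19.2, 14.7 and 18.9 FPKM in KMF. Creb3 changed by -1.23 ± 0.12 on the log2 scale (edgeR adjusted p = 0.000148). Creb3l1, which acts in secretory and bone cells, was at 1.30, 1.53 and 1.38 FPKM in ID8 and 0.130, 0.133 and 0.335 FPKM in KMF. In Creb3l1 the log2 fold change was -2.71 ± 0.39 (edgeR adjusted p = 0.00107). About 15.2% of the exon bases of Creb3 lie in exons of Tln1. Creb3l2 changed by -0.41 ± 0.12 (edgeR adjusted p = 0.0325, and 0.0547 without ID8 replicate 1, 0.104 without ID8 replicate 2, 0.133 without KMF replicate 2 and 0.126 without KMF replicate 3).

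Of the integrated stress response and stress-inducible regulators, 4 of 7 were higher and 3 were lower. Trib3, a pseudokinase induced by ATF4 and CHOP (chromosome 2, 152337422 to 152344032), was at 4.70, 5.32 and 3.58 FPKM in ID8 and 8.52, 9.93 and 7.10 FPKM in KMF. Trib3 changed by 0.95 ± 0.20 on the log2 scale (edgeR adjusted p = 0.0069). Chac1, a glutathione-degrading enzyme induced by ATF4, was at 4.19, 3.69 and 3.07 FPKM in ID8 and 6.89, 5.50 and 5.15 FPKM in KMF. In Chac1 the log2 fold change was 0.72 ± 0.19 (edgeR adjusted p = 0.0206, and 0.0535 without ID8 replicate 3 and 0.0566 without KMF replicate 1). Ppp1r15b, the constitutive partner of the eIF2 phosphatase, changed by 0.35 ± 0.07 (edgeR adjusted p = 0.0036). Ddit3, which encodes CHOP, was not analysed here. The sestrins, which restrain mTORC1 under stress, split. Sesn3 was at 11.7, 9.37 and 10.4 FPKM in ID8 and 20.3, 32.6 and 28.1 FPKM in KMF and rose by 1.41 on the log2 scale (SE 0.17, edgeR adjusted p = 0.000534), whereas Sesn1, a p53 target, was at 30.5, 24.8 and 28.4 FPKM in ID8 and 10.3, 9.80 and 10.8 FPKM in KMF. Sesn1 changed by -1.40 ± 0.09 on the log2 scale (edgeR adjusted p = 3.47e-05). Sesn2, induced by ATF4 and p53, was at 15.3, 15.9 and 15.5 FPKM in ID8 and 10.8, 11.1 and 11.1 FPKM in KMF. In Sesn2 the log2 fold change was -0.47 ± 0.07 (edgeR adjusted p = 0.00156). Ddit4l, a paralog of the mTORC1 inhibitor Ddit4, was at 4.01, 5.68 and 2.99 FPKM in ID8 and 0.234, 0.143 and 0.254 FPKM in KMF. Ddit4l changed by -4.26 ± 0.34 on the log2 scale (edgeR adjusted p = 7.52e-05), from counts of 322, 373 and 209 fragments in ID8 and 15, 9 and 23 in KMF.

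Cytosolic Hsp70 and Hsp110 members went both ways, 3 higher and 2 lower of 5. Hspa12b, a distant Hsp70 relative (chromosome 2, 131127280 to 131146321), was at 1.73, 1.69 and 1.40 FPKM in ID8 and 7.68, 10.8 and 5.96 FPKM in KMF. In Hspa12b the log2 fold change was 2.38 ± 0.24 (edgeR adjusted p = 0.000196), and Hspa14, which works at the ribosome, changed by 0.82 ± 0.08 (edgeR adjusted p = 0.00021). Hspa1a, the classical heat-induced Hsp70, was low, with 64, 59 and 54 fragments in ID8 and 20, 10 and 6 in KMF, and its log2 fold change was -2.20 ± 0.49 (edgeR adjusted p = 0.00853). A near-identical copy of this gene lies beside it, and how its reads were divided is not given in the sources used here. Hspa4 and Hspa4l, of the Hsp110 family, changed by -0.32 ± 0.08 and 0.27 ± 0.08 (edgeR adjusted p = 0.0182 and 0.04); the adjusted p of Hspa4 was 0.0712 without ID8 replicate 1, 0.0591 without ID8 replicate 2, 0.0831 without KMF replicate 2 and 0.0735 without KMF replicate 3, and that of Hspa4l was 0.162 without ID8 replicate 1, 0.0728 without ID8 replicate 2, 0.106 without KMF replicate 2 and 0.0925 without KMF replicate 3.

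Hsp90ab1, the constitutive Hsp90 of the cytosol and the most abundant member (chromosome 17, 45567775 to 45573271), was at 1757, 1846 and 1490.3 FPKM in ID8 and 1251, 1166 and 1251 FPKM in KMF. The KMF libraries were below the ID8 libraries, with a log2 fold change of -0.44 ± 0.11 (edgeR adjusted p = 0.0152, and 0.0558 without ID8 replicate 1 and 0.0625 without KMF replicate 2). Hspb6, a small heat shock protein, was at 3.94, 3.35 and 3.33 FPKM in ID8 and 11.7, 11.7 and 10.1 FPKM in KMF. Hspb6 changed by 1.69 ± 0.14 on the log2 scale (edgeR adjusted p = 7.60e-05), and Hspb11, which despite its name is a subunit of the intraflagellar transport complex, was at 6.44, 7.23 and 7.68 FPKM in ID8 and 4.29, 3.40 and 4.27 FPKM in KMF. In Hspb11 the log2 fold change was -0.79 ± 0.16 (edgeR adjusted p = 0.00599). Of the helpers of Hsp70 and Hsp90, 3 of 4 were higher. Bag1, a nucleotide exchange factor that also restrains cell death (ENSMUSG00000028416, chromosome 4, 40936398 to 40948294), was at 146, 153 and 202 FPKM in ID8 and 568, 647 and 594 FPKM in KMF. Its log2 fold change was 1.89 ± 0.13 (edgeR adjusted p = 4.12e-05), a 3.71-fold rise, the most of any member above 100 FPKM in both lines. Bag2, an inhibitor of the CHIP ubiquitin ligase, was at 12.4, 12.8 and 12.4 FPKM in ID8 and 21.1, 18.6 and 20.9 FPKM in KMF. Bag2 changed by 0.73 ± 0.09 on the log2 scale (edgeR adjusted p = 0.000609), and Bag6, which guards tail-anchored proteins, changed by -0.32 ± 0.10 (edgeR adjusted p = 0.0337, and 0.12 without ID8 replicate 1, 0.0592 without ID8 replicate 3, 0.149 without KMF replicate 2 and 0.116 without KMF replicate 3). Hspbp1, an Hsp70 exchange factor, was weakly higher (0.29 ± 0.09, edgeR adjusted p = 0.0415), a call lost in 12 of 16 alternatives, with an adjusted p of 0.13 without ID8 replicate 1, 0.116 without ID8 replicate 2, 0.0541 without ID8 replicate 3, 0.123 without KMF replicate 1 and 0.0639 without KMF replicate 3.

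J proteins present clients to Hsp70. The 15 listed outside the ER chaperone and mitochondrial groups included 6 that were higher (40%), 7 that were lower (46.67%) and 2 that were not called. Their median log2 fold change was -0.36. This group, labelled cytosol and nucleus in the figures, was not sorted by compartment and includes membrane J proteins such as Dnajc25. Dnajc25, a membrane J protein (chromosome 4, 58995062 to 59025573), was at 5.28, 3.89 and 5.27 FPKM in ID8 and 18.9, 21.1 and 18.3 FPKM in KMF. It changed by 2.06 ± 0.13 (edgeR adjusted p = 3.12e-05). Dnajc9, a histone chaperone, averaged 19.8 ± 0.873 FPKM over ID8 libraries and 38.4 ± 1.51 for KMF (SD, n = 3), and it changed by 0.99 ± 0.08 (edgeR adjusted p = 7.15e-05). Dnaja1, a partner of Hsc70, averaged 47.7 ± 4.81 FPKM over ID8 libraries and 80.9 ± 0.383 for KMF (SD, n = 3), and it changed by 0.80 ± 0.08 (edgeR adjusted p = 0.000231). Dnaja2, a close relative of Dnaja1, went the other way, at 114, 112 and 109 FPKM in ID8 and 75.3, 72.8 and 73.5 FPKM in KMF. In Dnaja2 the log2 fold change was -0.56 ± 0.07 (edgeR adjusted p = 0.000423). The largest falls were in rare mRNAs. Dnaja4, a relative of Dnaja1, was counted as 142, 183 and 87 fragments in ID8 and 0, 5 and 0 in KMF; its fitted log2 fold change of -6.23 (edgeR adjusted p = 0.000697) rests on these few KMF fragments, and 44.05% of its exon bases lie in exons of Wdr61. Dnajc12, a cofactor of aromatic amino acid hydroxylases, was at 1.69, 2.30 and 2.65 FPKM in ID8 and 0.417, 0.196 and 0.125 FPKM in KMF. Dnajc12 changed by -3.16 ± 0.43 on the log2 scale (edgeR adjusted p = 0.000864), and Dnajc27, a small GTPase with a J domain, had -2.58 ± 0.22 (edgeR adjusted p = 9.79e-05). Dnajc21, Dnajc13, Dnajb14, Dnajc7, Dnajc18 and Dnajb2 lay between 0.70 and -0.48 on that scale. Dnajb2 lost its call with an adjusted p of 0.0527 without ID8 replicate 1, 0.0599 without ID8 replicate 3, 0.119 without KMF replicate 1, 0.0878 without KMF replicate 2 and 0.122 without KMF replicate 3, and Dnajc18 with an adjusted p of 0.0522 without KMF replicate 3. Dnajb5 (-0.64, edgeR adjusted p = 0.0737, and 0.0343 without KMF replicate 1) and Dnajc14 (0.19, edgeR adjusted p = 0.0503) were not called.

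Few genes of the chaperonin and prefoldin group, which hands new actin and tubulin to the ring chaperone TRiC, were listed, and no listed gene encoded a subunit of TRiC itself. Pfdn4 was at 11.5, 10.5 and 11.01 FPKM in ID8 and 14.8, 13.9 and 14.3 FPKM in KMF. In Pfdn4 the log2 fold change was 0.42 ± 0.11 (edgeR adjusted p = 0.0215, and 0.0586 without ID8 replicate 1, 0.0666 without ID8 replicate 2 and 0.0509 without KMF replicate 1). Pfdn2 was at 31.7, 32.4 and 35.98 FPKM in ID8 and 28.6, 24.7 and 25.4 FPKM in KMF. Pfdn2 changed by -0.31 ± 0.09 on the log2 scale (edgeR adjusted p = 0.0302, and 0.0637 without ID8 replicate 2, 0.0885 without ID8 replicate 3, 0.155 without KMF replicate 2 and 0.147 without KMF replicate 3). Pfdn5 changed by -0.26 ± 0.07 (edgeR adjusted p = 0.0145, and 0.0597 without ID8 replicate 1, 0.0769 without KMF replicate 2 and 0.0697 without KMF replicate 3). In exon bases, 25.4% of Pfdn4, 27.6% of Pfdn2 and 11.8% of Pfdn5 overlap another gene. Of 4 mitochondrial J proteins, 3 were higher and 1 lower. Dnajc28 was at 3.30, 3.13 and 4.11 FPKM in ID8 and 0.840, 1.10 and 1.02 FPKM in KMF. In Dnajc28 the log2 fold change was -1.79 ± 0.18 (edgeR adjusted p = 0.000216), and Dnajc19, of the import motor, was at 8.79, 7.92 and 9.57 FPKM in ID8 and 11.5, 12.6 and 11.9 FPKM in KMF. Dnajc19 changed by 0.49 ± 0.10 on the log2 scale (edgeR adjusted p = 0.00717). Dnaja3 and Dnajc15 changed by 0.29 ± 0.07 and 0.31 ± 0.10 (edgeR adjusted p = 0.0156 and 0.0397), with an adjusted p of 0.0634 without ID8 replicate 1 and 0.0515 without ID8 replicate 2 for Dnaja3 and 0.0622 without ID8 replicate 1, 0.122 without ID8 replicate 2, 0.0884 without ID8 replicate 3, 0.0804 without KMF replicate 1, 0.0801 without KMF replicate 2 and 0.0582 without KMF replicate 3 for Dnajc15.

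FK506-binding prolyl isomerases, which turn proline bonds, were lower in 7 of 11 cases (63.64%, beside 47.5% of all fitted genes) and higher in 3. Their median log2 fold change was -0.43. Fkbp10, an ER isomerase that folds type I collagen (ENSMUSG00000001555, chromosome 11, 100415697 to 100424824), was at 67.5, 68.5 and 72.6 FPKM in ID8 and 28.3, 23.98 and 22.2 FPKM in KMF. Its log2 fold change was -1.45 ± 0.10 (edgeR adjusted p = 4.73e-05) or 2.72-fold lower. Of 8 fibroblast markers 4 were listed, all lower in KMF, Col1a1 and Col3a1 among them, with a summed level of 77.4 to 107 FPKM in ID8 and 13.5 to 25.9 FPKM in KMF; their part in the fall of Fkbp10 was not tested. Fkbp5, a glucocorticoid-induced cochaperone of Hsp90, was at 176, 181 and 193 FPKM in ID8 and 116, 115 and 126 FPKM in KMF. In Fkbp5 the log2 fold change was -0.58 ± 0.07 (edgeR adjusted p = 0.00056), and Fkbp4, its counterpart in steroid receptor complexes, had -0.58 ± 0.07 (edgeR adjusted p = 0.000633). Fkbp1b, which binds calcium release channels, was at 1.42, 1.10 and 1.59 FPKM in ID8 and 0.217, 0.221 and 0.615 FPKM in KMF. Fkbp1b changed by -1.85 ± 0.45 on the log2 scale (edgeR adjusted p = 0.013, and 0.0553 without KMF replicate 2). Fkbpl, Fkbp8 and Fkbp15 were lower too (-0.79, -0.43 and -0.34; for Fkbp15 an adjusted p of 0.0683 without ID8 replicate 1, 0.0566 without ID8 replicate 3, 0.0841 without KMF replicate 1 and 0.107 without KMF replicate 2). The isomerases of the ER lumen Fkbp11 and Fkbp2 rose. Fkbp11 was at 11.4, 14.4 and 7.94 FPKM in ID8 and 23.6, 19.8 and 26.4 FPKM in KMF. In Fkbp11 the log2 fold change was 1.09 ± 0.23 (edgeR adjusted p = 0.0071), and in Fkbp2 it was 0.46 ± 0.10 (edgeR adjusted p = 0.00717). Fkbp14 (0.30 ± 0.10, edgeR adjusted p = 0.0469) lost its call in 10 of 16 alternatives, with an adjusted p of 0.18 without ID8 replicate 1, 0.138 without ID8 replicate 2, 0.102 without KMF replicate 2 and 0.147 without KMF replicate 3, and Fkbp7 was not called (0.27 ± 0.10, edgeR adjusted p = 0.0686).

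Cyclophilins, the other prolyl isomerases, were higher in 4 of 6 cases, lower in 1 and not called in 1. Ppia, cyclophilin A, was at 399.7, 426 and 381 FPKM in ID8 and 458, 498 and 506 FPKM in KMF. Ppia changed by 0.32 ± 0.08 on the log2 scale (edgeR adjusted p = 0.02, and 0.0756 without ID8 replicate 1 and 0.0567 without ID8 replicate 3); it has many processed copies in the genome, and how shared reads were placed is not given in the sources used here. Ppih, of the spliceosome, was at 8.29, 7.04 and 7.17 FPKM in ID8 and 12.6, 11.4 and 13.4 FPKM in KMF. In Ppih the log2 fold change was 0.77 ± 0.13 (edgeR adjusted p = 0.00255), and Ppid, a cochaperone of Hsp90, had 0.52 ± 0.08 (edgeR adjusted p = 0.00149). Ppib, of the ER, changed by 0.29 ± 0.09 (edgeR adjusted p = 0.043), with an adjusted p of 0.154 without ID8 replicate 1, 0.116 without ID8 replicate 3, 0.0569 without KMF replicate 1 and 0.101 without KMF replicate 2, and 24.96% of its exon bases lie in exons of Snx22. Ppic, also of the secretory pathway, was at 32.8, 34.4 and 23.5 FPKM in ID8 and 4.29, 4.61 and 3.23 FPKM in KMF. Ppic changed by -2.87 ± 0.21 on the log2 scale (edgeR adjusted p = 5.27e-05), and all KMF libraries were far below the ID8 range. Ppig was not called (0.22 ± 0.08, edgeR adjusted p = 0.0661, and 0.0216 without ID8 replicate 3). Of the collagen prolyl hydroxylase subunits, P4ha2 was at 2.73, 7.12 and 8.49 FPKM in ID8 and 14.3, 24.6 and 23.5 FPKM in KMF. P4ha1 was at 9.69, 16.4 and 20.4 FPKM in ID8 and 16.1, 27.8 and 25.6 FPKM in KMF. The lines overlapped for P4ha1 and not for P4ha2. P4ha2 was called (1.81 ± 0.39, edgeR adjusted p = 0.00802) and P4ha1 was not (0.62 ± 0.29, edgeR adjusted p = 0.157). ID8 replicate 1 was the lowest library for both.

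**Figure D3:**
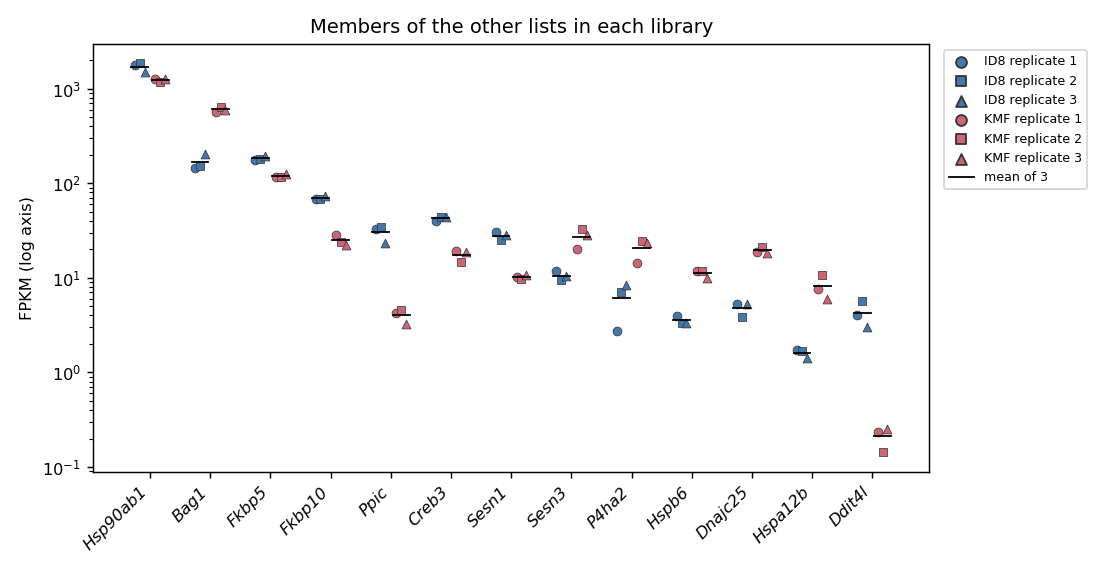
FPKM (log axis) of further members in each library of ID8 and KMF, one point per library with a marker for each replicate and a black line at the mean of 3. Bag1 and Dnajc25 lie higher in all KMF libraries and Fkbp10, Ppic, Creb3 and Sesn1 lower, without overlap.

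Genes of the same pathways with other names were taken from lists made with earlier results known. Of their 56 calls, 36 held in every alternative and 20 were lost in some. For the counts that follow, 45.4% of all fitted genes were higher and 47.5% were lower. Of 19 other genes of the unfolded protein response in the table, 15 were higher (78.95%) and 4 were lower. Their median was 0.48 on the log2 scale, beside -0.23 over all fitted genes. The latter was 0.20 to 0.22 with the low genes left out. Of these 19 calls, 12 higher and 3 lower held in every alternative. Those of Syvn1 and Sec61a1 were lost in 11 and 10 of 16. The largest rise was that of Sdf2l1, a partner of ER J proteins, at 30.2 ± 3.18 FPKM over ID8 libraries and 72.8 ± 18.6 for KMF (SD, n = 3) and 1.31 ± 0.19 (edgeR adjusted p = 0.00113). Atf4 changed by 0.48 ± 0.10 (edgeR adjusted p = 0.00794) and Atf6b by -0.51 ± 0.08 (edgeR adjusted p = 0.0013). Of 10 other genes of the integrated stress response 6 were higher and 4 lower, with Shmt2, a mitochondrial enzyme of serine use, highest (1.30 ± 0.09, edgeR adjusted p = 3.48e-05), and with Cth, of cysteine synthesis, at 1 to 3 fragments in every KMF library. Among 13 other cytosolic cochaperones 7 were higher and 6 lower, from Tbcd (-0.41) to Cryab (1.69), a small heat shock protein. Only 3 of the higher and 1 of the lower calls held in every alternative, and those of Vbp1 and Cdc37 were each lost in 12. Of 8 collagen folding genes 4 were higher and 4 lower, from Colgalt2 (-3.17) to Leprel1 (2.04), and 2 higher and 4 lower calls held in every alternative. Of 5 mitochondrial genes 2 were higher and 2 lower, from Hscb (-0.66) to Grpel2 (0.45), and 0 higher and 1 lower call held in every alternative. Of 3 other prolyl isomerases 1 was higher and 1 lower, Ppil1 (0.28, a call lost in 12 alternatives) and Ppil6 (-2.55).

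**Figure D4:**
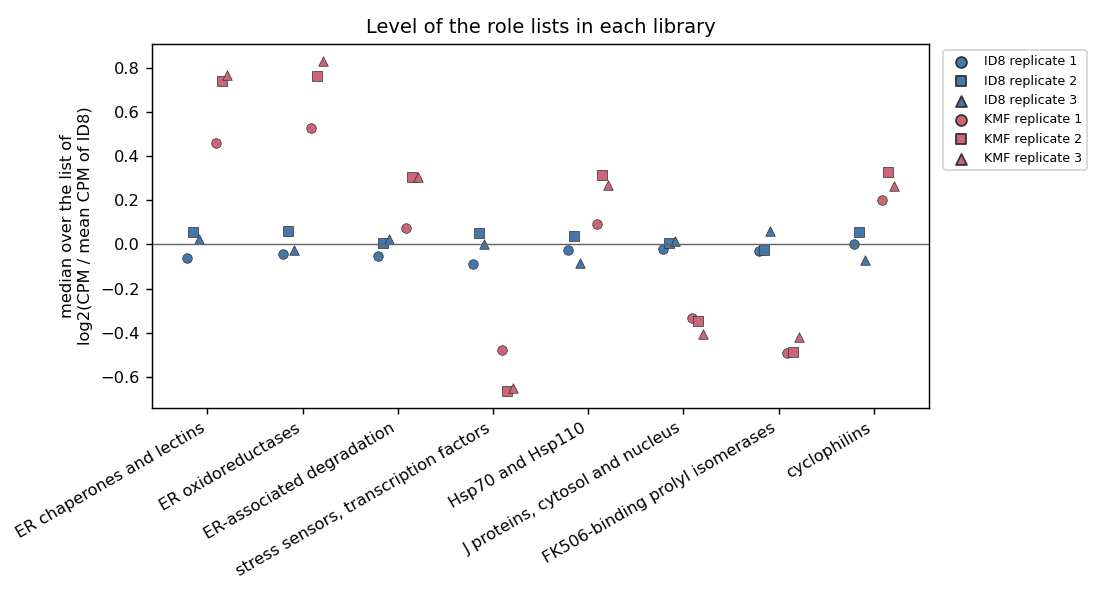
Median log2 ratio to the ID8 mean over the members of each role (vertical axis, from CPM), one point per library for 8 of the roles. The ER chaperones stand at 0.46, 0.74 and 0.77 in KMF replicates 1, 2 and 3, and the FK506-binding isomerases at -0.49, -0.49 and -0.42.

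Members were also set against their neighbours in the genome. The direction of 52 of the 81 called members was that of most other called genes within their 10-megabase block (64.2%), beside 63.4% of the 6386 other called genes. Blocks went both ways around members that rose. In the block of Dnajc25, 84.6% of 26 other called genes were higher in KMF. That share was 71.9% of 57 for Manf, 68.5% of 54 for Hspa5 and 64.5% of 31 for Hyou1. It was 64.4% of 45 for Pdia3 and 64.1% of 39 for Dnajb11. By contrast it was 9.52% of 21 for Pdia4, 11.8% of 34 for Herpud1, 16.7% of 54 for Calr and 22.4% of 49 for Canx. On chromosome 2, 9 of 12 members were higher and 1 was lower, beside 56.1% higher among the 487 other called genes, and on chromosome 17 all 5 members were lower, beside 49.8% higher among 257. DNA copy number was not analysed here, and its part in these differences was not tested. Of 10 markers of the ovarian surface epithelium 7 were listed, with a summed level of 146.6 to 221.5 FPKM in ID8 and 160.8 to 212 FPKM in KMF. That sum was carried by Wt1, Msln and, in ID8, Upk3b, and the listed markers were not level between the lines. Markers level between the lines could not be listed, so these values cannot test the origin of the cells. Of the 6 fitted, 1 was higher and 4 were lower, with a median log2 fold change of -1.50. The lower call of Wt1 was lost in 4 of 16 alternatives. Msln averaged 34.3 ± 4.70 FPKM over ID8 libraries and 91.6 ± 11.5 for KMF (SD, n = 3) and Wt1 108 ± 12.1 FPKM over ID8 libraries and 77.3 ± 13.2 for KMF (SD, n = 3). Upk3b averaged 25.3 ± 16.4 FPKM over ID8 libraries and 1.70 ± 0.554 for KMF (SD, n = 3), Cdh1 8.61 ± 2.94 FPKM over ID8 libraries and 0.726 ± 0.222 for KMF (SD, n = 3) and Krt7 1.57 ± 0.664 FPKM over ID8 libraries and 0.260 ± 0.0297 for KMF (SD, n = 3). The part of these differences in the results was not tested. Of 10 leukocyte markers 1 was listed, Cd74, at 0.857 to 1.59 FPKM in ID8 and 0.215 to 0.391 FPKM in KMF, and of 6 endothelial markers 1, Kdr, at 0.07 FPKM or less. Markers outside the table were not analysed here.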

How the data were processed

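RNA of 3 ID8 and 3 KMF tumorsphere samples was enriched for mRNA on poly-T beads, made into libraries with the NEBNext Ultra kit and sequenced. The study's methods name TopHat2 for alignment, whereas the submitters' processing notes list CASAVA 1.8, STAR 2.5, DESeq2 and mm10; counter, annotation release and strand setting are not given in the sources used here. The deposited table holds raw counts and FPKM per library, normalised count signal (from which size factors were taken), and the authors' log2 fold changes and p-values. Of these last, the p-values gave only the 17359 genes tested and the 0.05 limit of the table, and the fold changes were not used. edgeR 4.0.16 (R 4.3.3; glmQLFit and glmQLFTest, two-sided) was fitted to the counts on group, with library sizes recovered from counts, FPKM and length, TMM scaling and filterByExpr, and p-values were adjusted (Benjamini-Hochberg) over the 17359 genes. On simulated counts for 7320 genes, 200 of them changed by 1 log2 unit, 73% of the changed genes and 3 unchanged genes were called. Alternatives used limma 3.58.1, DESeq2 1.42.0, other scalings and filters, pseudocounts of 1 and 0.1 on FPKM, and leaving out each library. Genes given with all their values were a core set plus, in each role, those called with the largest change. Members and lists were chosen with earlier results of these data known, and ERSE-II was added after the values were seen. Promoters came from RefSeq (GRCm38.p6), and gene positions from GENCODE M21 (GRCm38), which 7286 of 7320 identifiers overlapped.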

Additional observations from a re-analysis of the deposited data

How the results depend on the processing

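Over 16 alternatives, 0 members reversed direction, 56 of 81 called members stayed called wherever they were fitted, and all 25 others lost the call when some library was left out, 17 of them also in another alternative. Leaving out single libraries gave 60 to 76 members called, 34 to 44 higher and 24 to 32 lower (38.6 to 50% of members higher, beside 35.9 to 41.5% of all fitted genes), with a member median of 0.27 to 0.37, 11 to 14 ER genes called higher, an ER median of 0.68 to 0.80, 5 to 7 FK506-binding genes lower and 3 to 4 sensors lower. The most calls, 21, were lost without ID8 replicate 1. Upper quartile scaling moved the median of all genes by -0.11, the member median to 0.18 and the ER median to 0.60, with 68 members called, of which 50% were higher against 59.26% (38.6% of all members beside 35.3% of all fitted genes). limma on log2(FPKM + 1) gave an ER median of 0.65. The median of all fitted genes was -0.23 and became 0.20 over genes that reached 10 counts in each library and 0.20 to 0.22 with limma, where fewer genes were fitted. DESeq2 called 77 members, library totals alone 73, and adjustment over the listed genes alone 87. Replicate numbers did not pair the samples (correlations of same-numbered deviations 0.0927, -0.111 and 0.0968), and not every sample correlated best with its own number. A fit with the replicate block called 76 members, with 6 calls lost and 1, that of P4ha1, gained. In that fit 3 sensors were called lower against 4. The cause of these changes was not tested. Some of these fits also held fewer samples or genes. Depth limits the rare genes: 3 fragments are 0.0903 to 0.13 CPM.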
